A study of Mus musculus with 11 samples.

Results

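The small leucine-rich proteoglycans are a family of secreted matrix proteins, and 8 of its genes were followed here: Dcn (decorin), Bgn (biglycan), Aspn (asporin), Lum (lumican), Fmod (fibromodulin), Prelp (prolargin), Omd (osteomodulin) and Ogn (osteoglycin, also called mimecan). They were taken as a fixed list, and a probe set was counted as a member when the annotation of the array gave it that single gene symbol. This gave 19 probe sets, 6 for Fmod, 3 for Bgn, 2 each for Dcn, Ogn, Aspn and Prelp, and 1 each for Lum and Omd. The whole data set holds 18193 genes with a single symbol and 45037 probe sets that are not array controls.

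Proteins of the family share a curved core of leucine-rich repeats with which they bind collagen fibrils and set fibril width and spacing. Decorin and biglycan carry chondroitin or dermatan sulfate chains, asporin is their closest relative, lumican and fibromodulin carry keratan sulfate, and several members bind TGF-beta and related growth factors. In most organs, stomach wall included, they are known as products of fibroblasts and related connective tissue cells.

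The study set 2 cultured lines described as progenitors of interstitial cells of Cajal, the pacemaker cells of gut muscle, against the muscle coat of the stomach (gastric tunica muscularis) from which each was derived. The line from C57BL/6J mice (named 2xSCS2F10, 3 arrays) was wild-type and grew at 37 °C in a neural stem cell proliferation medium to which 5% chick embryo extract had been added. The line from H-2Kb-tsA58 mice (named 2xSCS70, 3 arrays, here the tsA58 line) grew in that medium at 39.5 °C without interferon-gamma, and no extract is named for it. H-2Kb-tsA58 mice carry a heat-sensitive SV40 large T antigen under the interferon-responsive H-2Kb promoter, so these culture conditions are the ones that lower its activity. C57BL/6J stomach muscle was measured on 2 arrays and tsA58 stomach muscle on 3. Each line is 1 clone, and strain, transgene, temperature, extract and clone all differ between the lines, so their parts in any difference cannot be told apart. Animal age, sex and the number of animals behind a tissue sample are not given in the sources used here. The titles call the replicates biological, but nothing says that they came from separate cultures or animals, so the p-values measure the spread between these arrays, which may be technical.

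Levels are given on the log2 scale of the deposited intensities, a difference of 1 being 2-fold, and the number of arrays limits their precision. Array medians lay between 4.66 and 4.84, and a level near or under them cannot be told from background, so a fold that ends there understates the change. A probe set was called changed when limma's adjusted p was below 0.05 over all 26903 tested probe sets and the change was at least 2-fold. The 19 member probe sets all passed the filter on low values, which asked for a level above the array median on at least 2 arrays. Of these, 6 did not pass on the line arrays alone: those of Lum and Omd, both of Aspn, 1441506_at of Dcn and 1438966_x_at of Fmod. Omd passed through 2 tsA58 tissue arrays only, so these 6 were tested because they were high in tissue, and their lower level in the lines is not independent of the filter. Array 3 of the tsA58 line stood apart. It correlated with the other arrays of its group at 0.936 and 0.915, against 0.979 between those 2, its ratio of 3' to 5' actin signal was 0.05 on the log2 scale against 0.51 and 0.85, and its mean over 5 mesothelium markers was 9.86 against 7.29 and 6.29. Results that rest on it are given with and without it, and its part in them was not tested. The labelled cell types were checked against markers: Kit, the receptor that defines mature interstitial cells of Cajal, averaged 3.60 in the C57BL/6J line and 3.51 in the tsA58 line, both under the array medians, and 7.15 and 7.87 in the tissues. Ano1, a chloride channel of the same cells, averaged 6.26 and 7.15 in the lines, above the array medians, and 9.91 and 9.83 in the tissues. The mean over the mesothelium markers was 10.05 to 10.79 in the C57BL/6J line, 9.19 to 9.34 in its tissue and 9.06 to 9.53 in tsA58 tissue. The tissue arrays also carried smooth muscle markers at a mean of 11.60 to 13.15 and stomach lining markers at 10.90 to 13.21, so the tissue was a mixture of cell types.

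Lum, Aspn and Ogn were lower in both cultured lines than in stomach muscle, while Bgn was not lower in either. The brightest probe sets of Fmod and Prelp were also called lower in both lines. However, the Fmod call in tsA58 and the Prelp call in C57BL/6J were each lost on leaving out single arrays. Lum, Aspn and Ogn had log2 differences from -7.92 to -5.28 in the C57BL/6J line and from -8.20 to -6.25 in the tsA58 line. Lum and Aspn reached background in both lines. Bgn lay far above the array medians in every group and rose 3.28-fold in the C57BL/6J line. Dcn and Fmod differed most among replicate arrays, as array 3 of the tsA58 line lay far above arrays 1 and 2 of its group for both. In these bulk samples, fewer cells that make a transcript and less transcript per cell cannot be told apart.

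Asporin binds collagen and TGF-beta and lacks the glycosaminoglycan attachment sites of its relatives. Aspn (probe set 1416652_at) read 2.64, 2.83 and 2.76 in the C57BL/6J line and 10.49 and 10.35 in its tissue. In the tsA58 line it read 2.68, 2.74 and 2.51, and in tsA58 tissue 10.73, 10.82 and 10.50. All 6 line arrays lay under the array medians and all 5 tissue arrays far above them, with no overlap. Every line array lay below every tissue array for 31.9% of all tested probe sets in C57BL/6J and 23.6% in tsA58. The line minus tissue difference was -7.67 ± 0.18 (SE; limma adjusted p = 2.42e-09) for C57BL/6J and -8.04 ± 0.16 (adjusted p = 3.82e-10) for tsA58. The other Aspn probe set, 1448421_s_at, also fell, with differences of -8.01 and -7.18. Both Aspn probe sets passed the filter through tissue arrays alone, so these differences are not independent of it and are given as descriptions.

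Osteoglycin is a keratan sulfate proteoglycan of the matrix of connective tissue, bone and vessel wall. Ogn (1419662_at) read 6.63, 6.86 and 6.25 in the C57BL/6J line against 11.83 and 11.89 in its tissue. In the tsA58 line it read 4.95, 5.15 and 7.0 against 11.66, 12.30 and 11.90 in its tissue. The 5 tissue arrays were all above the 6 line arrays, a separation whose shares over all tested probe sets are those given for Aspn. Arrays 1 and 2 of the tsA58 line lay just above the array medians, while array 3 lay above all 3 arrays of the C57BL/6J line. Ogn fell by 5.28 ± 0.50 (SE; limma adjusted p = 1.77e-05) in the C57BL/6J line and by 6.25 ± 0.45 (adjusted p = 1.78e-06) in the tsA58 line. The other Ogn probe set, 1419663_at, had differences of -5.24 and -6.54, both called.

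Lumican is best known for keeping collagen fibrils thin and evenly spaced in the cornea, and it is also made in muscle coats and skin. Lum (1423607_at) read 3.43, 3.46 and 3.15 in the C57BL/6J line and 11.24 and 11.28 in C57BL/6J tissue, and 3.14, 3.66 and 3.27 in the tsA58 line against 11.60, 12.24 and 10.82 in tsA58 tissue. As with Aspn, every line array was under the array medians. The differences of -7.92 ± 0.34 (SE; limma adjusted p = 8.09e-08) and -8.20 ± 0.31 (adjusted p = 1.38e-08) correspond to 242-fold and 293-fold lower intensity. Lum too passed the filter through tissue arrays alone, so its differences are not independent of it and are given as descriptions.

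Biglycan binds collagen and growth factors and, once released, signals through toll-like receptors. Bgn (1416405_at) read 12.00, 12.06 and 12.12 in the C57BL/6J line and 10.37 and 10.32 in C57BL/6J tissue, so every line array was above both tissue arrays. In the tsA58 line it read 11.81, 11.36 and 11.85 and in tsA58 tissue 11.35, 11.14 and 10.66, where the groups were separated by only a narrow gap. Every line array lay above every tissue array for 42.6% of all tested probe sets in C57BL/6J and 26.8% in tsA58. The Bgn difference was 1.71 ± 0.24 (SE; limma adjusted p = 0.00019) for C57BL/6J. For tsA58 it was 0.62 ± 0.21 (adjusted p = 0.032), under the 2-fold limit and so not called. The other Bgn probe sets, 1437889_x_at and 1448323_a_at, rose by 1.47 and 2.18 in C57BL/6J, with 0.59 for each in tsA58, where neither was called.

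The promoters of Aspn, Ogn and Bgn are printed because the first pair fell together in both lines and Bgn did not. The 250 bases before the RefSeq start were available for 6 of the 8 genes (GRCm38.p6, 5' to 3' on the gene's strand), for Aspn at chr13:49544193-49544442 (+), for Ogn at chr13:49607765-49608014 (+) and for Bgn at chrX:73483351-73483600 (+). Capitals mark matches on either strand to the TATA box (TATAAA), the GC box (GGGCGG), the CCAAT box (CCAAT) or the TEAD core (GGAATG):
Aspn: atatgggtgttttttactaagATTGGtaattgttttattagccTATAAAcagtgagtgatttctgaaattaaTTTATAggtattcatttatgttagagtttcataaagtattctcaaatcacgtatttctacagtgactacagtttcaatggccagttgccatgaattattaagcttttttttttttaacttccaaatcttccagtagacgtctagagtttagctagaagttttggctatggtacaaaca
Ogn: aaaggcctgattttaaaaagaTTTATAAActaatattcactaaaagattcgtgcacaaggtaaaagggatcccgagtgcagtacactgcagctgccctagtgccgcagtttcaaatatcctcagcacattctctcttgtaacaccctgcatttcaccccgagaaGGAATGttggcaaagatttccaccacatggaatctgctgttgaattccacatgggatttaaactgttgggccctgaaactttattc
Bgn: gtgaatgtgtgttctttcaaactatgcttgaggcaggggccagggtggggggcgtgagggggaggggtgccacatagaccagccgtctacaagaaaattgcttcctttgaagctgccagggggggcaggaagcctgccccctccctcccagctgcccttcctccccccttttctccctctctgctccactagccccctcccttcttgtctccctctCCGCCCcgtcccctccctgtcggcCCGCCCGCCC
Aspn holds 2 matches to TATAAA and 1 to CCAAT, Ogn 2 overlapping matches to TATAAA and 1 to GGAATG, and Bgn 3 matches to GGGCGG, 2 of them overlapping. Of all 32851 promoters in the table, 12.4% hold TATAAA, 32.7% GGGCGG, 33.8% CCAAT and 12.6% GGAATG in a window of the same length. The AP-1 letters TGANTCA, which 6.75% of promoters hold, were in none of the 6 windows. The GC content was 30.0% for Aspn, 42.0% for Ogn and 64.4% for Bgn, against a median of 52.4% over all promoters. Such matches describe the letters and show no binding.

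Decorin, the founding member, binds collagen and TGF-beta and restrains several receptor tyrosine kinases. Dcn (1449368_at) read 11.64, 11.24 and 11.44 in the C57BL/6J line and 12.55 and 12.54 in its tissue. In the tsA58 line the 3 arrays read 7.71, 8.58 and 12.07, against 12.60, 12.96 and 12.86 in tsA58 tissue. The C57BL/6J line was thus slightly under its tissue, arrays 1 and 2 of the tsA58 line far under theirs, and array 3 of the tsA58 line above every array of the C57BL/6J line. The difference of -3.35 ± 0.83 in tsA58 was called (SE; limma adjusted p = 0.0074) and became -4.66 ± 0.25 (adjusted p = 6.48e-07) without array 3. In C57BL/6J the difference was -1.11 ± 0.93 (adjusted p = 0.36), where the wide error comes from the spread of the tsA58 line in the shared fit: without array 3 of that line it was -1.11 ± 0.25 (adjusted p = 0.0047) and was called. The other Dcn probe set, 1441506_at, lay between 3.93 and 5.35 on all 11 arrays, close to the array medians, and was called in no comparison.

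Fibromodulin binds collagen fibrils at a site near lumican's and also binds TGF-beta. Its brightest probe set, 1456084_x_at, read 3.32, 3.30 and 3.69 in the C57BL/6J line and 9.0 and 8.68 in its tissue. In the tsA58 line it read 4.72, 4.22 and 8.81, and in tsA58 tissue 8.09, 8.14 and 9.45. Array 3 of the tsA58 line lay inside the range of its tissue, while the other line arrays of both strains were at or under the array medians. Fmod fell by 5.41 ± 1.06 (SE; limma adjusted p = 0.0018) in the C57BL/6J line. In the tsA58 line the change of -2.65 ± 0.94 passed narrowly (adjusted p = 0.041), and its call was lost on leaving out any 1 of the 10 arrays other than array 3 of the tsA58 line, whose removal made it -4.09 ± 0.38 (adjusted p = 2.38e-05).

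The other 5 Fmod probe sets had smaller differences, from -1.21 to -2.29 in C57BL/6J, where 2 of them were called, and from -0.65 to -1.27 in tsA58, where none was. Without array 3 of the tsA58 line all 5 were called lower in both strains, with differences from -2.29 to -1.21 and from -2.27 to -1.36. Of the 6 Fmod probe sets, 5 carry the array maker's x suffix, which marks probes that can also match other transcripts.

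Prolargin anchors basement membranes to collagen through heparan sulfate. Prelp (1416321_s_at) read 4.87, 5.52 and 4.98 in the C57BL/6J line and 6.12 and 6.46 in C57BL/6J tissue. It read 4.56, 4.40 and 5.79 in the tsA58 line and 8.65, 9.72 and 9.72 in tsA58 tissue. The lines overlapped each other near the array medians, C57BL/6J tissue was a little higher and tsA58 tissue was highest. It fell by 4.45 ± 0.40 (SE; limma adjusted p = 8.69e-06) in tsA58 and by 1.17 ± 0.44 (adjusted p = 0.0497) in C57BL/6J. The C57BL/6J call was lost without arrays 1 or 3 of its line, either array of its tissue, array 1 of the tsA58 line or array 2 or 3 of tsA58 tissue, and the sign turned (0.09) when arrays were centred on hybridisation controls. The second probe set, 1416322_at, fell by 2.29 in tsA58 and differed by 0.27 in C57BL/6J, where it was not called.

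Osteomodulin belongs to bone and tooth matrix. Omd (1418745_at) lay between 4.03 and 4.58 on all line and C57BL/6J tissue arrays, under the array medians, and only arrays 2 and 3 of tsA58 tissue, at 5.30 and 6.31, rose above them, with array 1 at 4.48. Since it was tested only because of those arrays, its difference in tsA58, -1.14 ± 0.36 (SE; limma adjusted p = 0.024), is given as a description; it was called but the call was lost without array 3 of tsA58 tissue (-0.66) or array 3 of the tsA58 line (-1.04, adjusted p = 0.058). In C57BL/6J the difference was -0.34 ± 0.40 and was not called. Markers of cartilage, tendon and bone had a mean between 4.26 and 5.13 on all arrays.

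**Figure D1:**
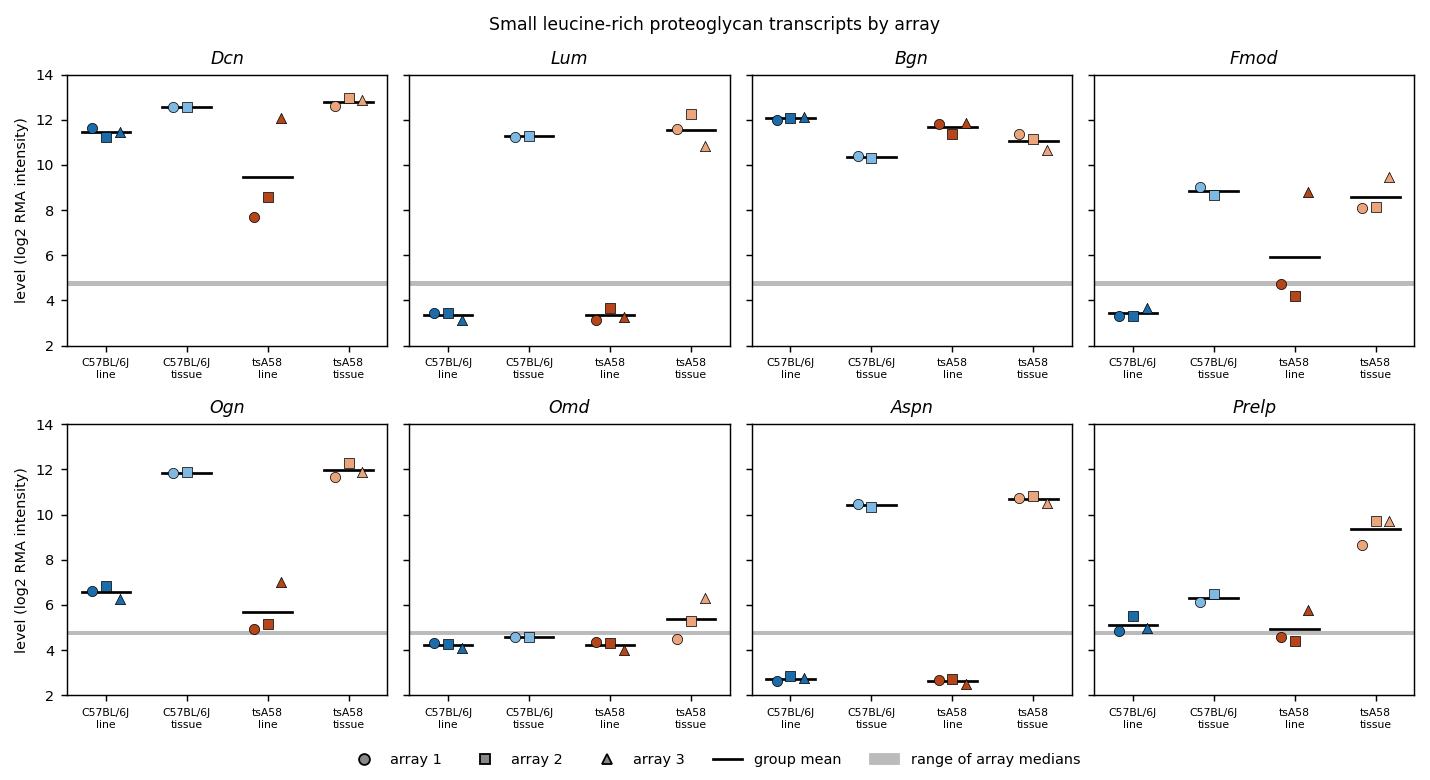
Levels (log2 RMA intensity) of the 8 genes on each of the 11 arrays, for the brightest probe set of each gene, with symbols for the array number, bars for group means and a grey band for the range of array medians (4.66 to 4.84). Lum, Aspn and Ogn separate lines from tissues in both strains, Bgn is highest in the C57BL/6J line, and array 3 of the tsA58 line lies far above arrays 1 and 2 for Dcn and Fmod.

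Counted over probe sets, the C57BL/6J line had 3 of 19 higher, all of Bgn, and 9 of 19 lower than its tissue, while 17.8% of all tested probe sets were called higher and 16.3% lower, 34.1% in all. The tsA58 line had 0 of 19 higher and 10 of 19 lower, against 14.6% and 15.9% of all tested probe sets, 30.5% in all. Without array 3 of the tsA58 line the member counts were 16 in C57BL/6J, beside 35.1% of all tested probe sets, and 14 in tsA58, beside 32.8%. At an unadjusted limma p below 0.05 the tsA58 line had 3 higher, all of Bgn, and 11 lower, beside 28.2% and 24.5% of all tested probe sets at that threshold. Counted by gene, with the brightest probe set for each, 5 of 8 were lower and 1 higher in C57BL/6J, where 16.6% and 17.5% of 13285 genes were called in these directions. In tsA58, 7 of 8 genes were lower, Omd among them, and 0 higher, against 18.9% and 12.8%. Lum, Aspn and Omd are counted in these though they passed the filter through tissue arrays. The median difference over the 8 genes was -3.23 in C57BL/6J and -3.90 in tsA58, beside 0.12 and -0.00013 over all genes tested. Fibroblast markers were also lower in the lines. The mean over 8 of them was 4.86 to 5.21 on the line arrays. It was 8.08 to 8.22 in C57BL/6J tissue and 8.98 to 9.67 in tsA58 tissue. In the tissues 8 of 8 lay above the array medians, in the C57BL/6J line 3 and in the tsA58 line 2. This was not particular to fibroblasts. Markers called lower in C57BL/6J and tsA58 were 5 and 7 of 7 for smooth muscle and 4 and 4 of 4 for enteric neurons. They were 4 and 5 of 5 for stomach lining and 4 and 4 of 5 for macrophages, with 1 macrophage marker higher in C57BL/6J. Of 5 mesothelium markers, 1 was higher and 0 lower in C57BL/6J, and 2 were lower in tsA58. The part of fibroblast or other cell numbers in the differences was not tested.

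**Figure D2:**
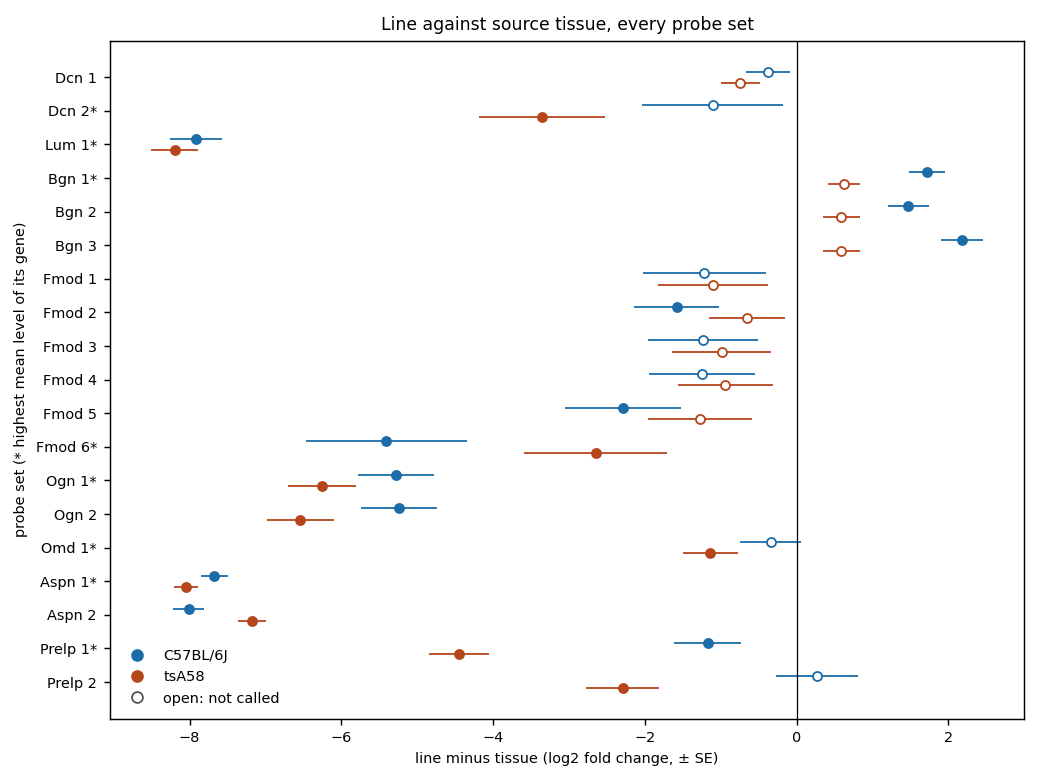
Line minus tissue difference (log2, points, with standard errors as bars) of all 19 probe sets in C57BL/6J and in tsA58, filled where called. The Lum, Aspn and Ogn probe sets lie beyond -5 in both strains and the 3 Bgn probe sets lie above 0; centring on hybridisation controls turned the signs of 7 probe sets in C57BL/6J, both of Dcn, 3 of Fmod, that of Omd and the brightest of Prelp.

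Between the lines, 0 of 19 member probe sets were called by limma, against 14.2% of all tested probe sets (8.71% higher and 5.52% lower), and 5 of the 19 had an unadjusted p below 0.05 (2 higher, 3 lower), beside 19.5% higher and 16.8% lower among all tested probe sets at that threshold. Array 3 of the tsA58 line exceeded the mean of arrays 1 and 2 by 3.93 for Dcn, by 4.34 for Fmod (2.12 to 3.37 for the other Fmod probe sets), by 1.95 for Ogn and by 1.30 for Prelp. For Lum, Aspn and Omd it differed by -0.13, -0.20 and -0.30, and for Bgn by 0.26. In all, 11 of the 19 member probe sets (57.9%) were higher there by at least 1 and 0 were lower, while 5.92% of all tested probe sets were higher by that margin and 10.2% lower. The 11 came only from Dcn, Fmod, Ogn and Prelp and included all 6 of Fmod. Probe sets of the same gene on the same array are not separate measures.

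Without that array 3 of the 19 probe sets were called lower in the tsA58 line than in the C57BL/6J line, beside 20.0% of all tested probe sets called in either direction. Dcn was lower by 3.30 ± 0.25 (SE; limma adjusted p = 2.19e-05; the difference with all arrays was -1.99 ± 0.83, adjusted p = 0.11). Ogn was lower by 1.53 ± 0.24 (adjusted p = 0.0011) and by 1.83 ± 0.25 (adjusted p = 0.00052) for its 2 probe sets, against -0.88 and -1.20 with all arrays. Fmod was higher in the tsA58 line by 2.48 ± 0.94 with all arrays (adjusted p = 0.083) and by 1.03 ± 0.38 without array 3 (adjusted p = 0.061), and it was called, at 3.33 (adjusted p = 0.037), without array 2 but without no other single array. Of 5 mesothelium markers, 4 were called lower in the tsA58 line (median -2.57 with all arrays). Their mean was 10.05 to 10.79 in the C57BL/6J line against 7.29 and 6.29 on arrays 1 and 2 of the tsA58 line. In C57BL/6J that mean was higher in the line than in tissue (9.19 to 9.34), while Ogn was lower. Smooth muscle markers averaged 7.02 to 7.40 in the C57BL/6J line and 6.24, 5.69 and 7.26 on arrays 1, 2 and 3 of the tsA58 line. Of 8 fibroblast markers, 1 was called lower there (Pdgfra, -2.03) and 1 higher (Dpt, 1.46). The part of these cell types in the differences was not tested. Lum and Aspn differed between the lines by 0.01 ± 0.31 and -0.10 ± 0.16, at background in both. Centring on hybridisation controls raised every difference between the lines by 1.58, under which 12 of 19 member probe sets and 66.0% of all tested probe sets were called higher in the tsA58 line; relative to all probe sets the values were the same.

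**Figure D3:**
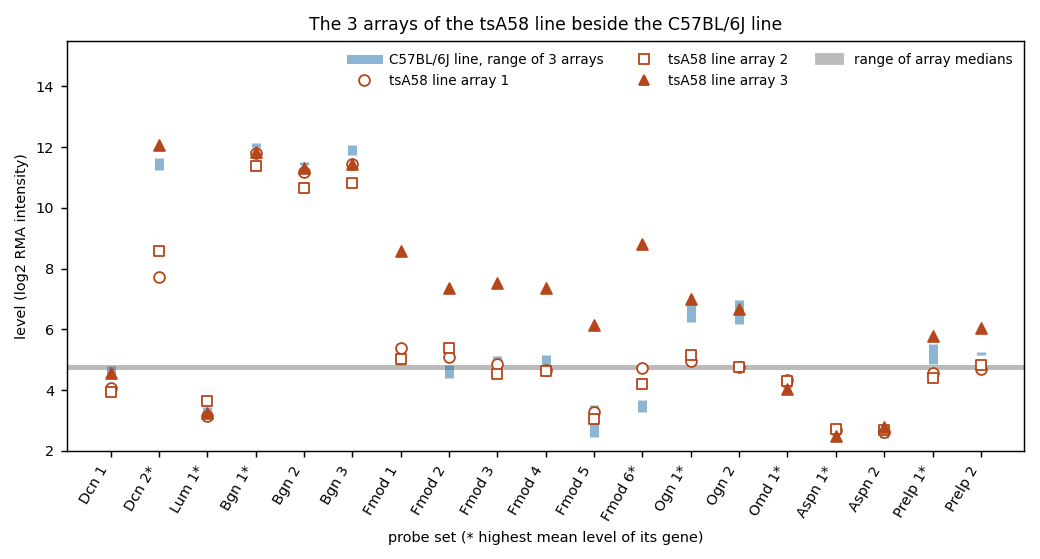
Levels (log2 RMA intensity) of the 8 genes on arrays 1, 2 and 3 of the tsA58 line, beside the range of the 3 arrays of the C57BL/6J line. For Dcn, Fmod, Ogn and Prelp array 3 lies above arrays 1 and 2, and for Lum, Aspn and Omd all arrays of both lines lie under the array medians.

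Between the stomach muscles, Prelp was the member that differed. It was higher in tsA58 than in C57BL/6J tissue by 3.07 ± 0.44 (SE; limma adjusted p = 0.0012), which is 8.40-fold, and by 2.52 ± 0.54 (adjusted p = 0.0078) for its other probe set, 1416322_at, which read 6.23, 8.04 and 8.16 against 4.85 and 5.07. Both probe sets were higher in each tsA58 tissue array than in either C57BL/6J tissue array. That separation held for 8 of 19 member probe sets and 34.9% of all tested probe sets. The Prelp probe sets were the 2 of 19 member probe sets called higher, with 0 called lower, against 9.83% and 6.04% of all tested probe sets, 15.9% in all. At an unadjusted limma p below 0.05, 4 were higher and 1 lower, beside 23.5% and 12.9% of all at that threshold. Without array 3 of the tsA58 line 3 were called higher, beside 17.3% of all tested probe sets in either direction, the added one being 1415939_at of Fmod (1.21, adjusted p = 0.0052). Markers of several cell types were also higher in tsA58 tissue: 4 of 8 of fibroblasts, 3 of 7 of smooth muscle (a mean of 12.83 to 13.15 against 11.60 to 11.72), 2 of 5 of macrophages, 1 of 4 of endothelium, 1 of 3 of enteric glia and 1 of 3 of adipocytes were called higher, and none of these lists had a marker called lower. Of 4 tested markers of cartilage, tendon and bone, 1 was called higher (Tnmd, 1.42) and 1 lower (Sox9, -1.55). The actin 3' to 5' ratio was 0.41 to 0.47 in tsA58 tissue and 0.84 to 1.02 in C57BL/6J tissue. For adipocytes the mean over 3 markers was 7.44, 10.93 and 10.49 in tsA58 tissue and 7.28 and 7.37 in C57BL/6J tissue. On the same arrays Prelp (1416321_s_at) read 8.65, 9.72 and 9.72 in tsA58 tissue, lowest on array 1, and 6.12 and 6.46 in C57BL/6J tissue. The part of these cell types and of RNA quality in the Prelp difference was not tested.

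The other members were closer between the tissues. Dcn differed by 0.26 ± 0.93, Lum by 0.29 ± 0.34, Ogn by 0.10 ± 0.50, Fmod by -0.28 ± 1.06 and Aspn by 0.27 ± 0.18. The 3 Bgn probe sets differed by 0.47 to 0.90, and 1448323_a_at had an adjusted p of 0.037 (limma) with a change under 2-fold. The second Aspn probe set, at -0.70 ± 0.20 (adjusted p = 0.030), went the other way from the first. Omd, at 0.79 ± 0.40, was not called, and among the removals of 1 array it was called without array 1 of tsA58 tissue (1.23, adjusted p = 0.017). Centring on hybridisation controls raised every difference between the tissues by 2.22, under which 19 of 19 member probe sets and 89.0% of all tested probe sets were called higher in tsA58 tissue. Without array 1 of C57BL/6J tissue, 1 of the 2 Prelp calls remained.

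The change from tissue to line differed between the strains for Prelp and, less firmly, for Bgn. The tsA58 change minus the C57BL/6J change was -3.27 ± 0.59 for Prelp (SE; limma adjusted p = 0.0036) and -2.56 ± 0.72 for its other probe set (adjusted p = 0.026). Prelp averaged 5.12 in the C57BL/6J line and 4.92 in the tsA58 line, close together and near the array medians, with the tissues apart. Its difference between the strains thus mostly repeats that between the tissues (3.07). For Bgn the tsA58 change minus the C57BL/6J change was -1.09 ± 0.32 (adjusted p = 0.029), -1.59 ± 0.37 for 1448323_a_at (adjusted p = 0.011) and -0.88 ± 0.36 for 1437889_x_at, which was not called. These made 4 of 19 member probe sets lower and 0 higher, against 12.3% and 10.0% of all tested probe sets, 22.3% in all, with 1 higher and 5 lower at an unadjusted limma p below 0.05, beside 15.6% and 21.6% of all at that threshold. The count was 2 without array 1 or 2 of the C57BL/6J line, either array of C57BL/6J tissue, array 2 of the tsA58 line or array 2 of tsA58 tissue. The Bgn call of 1416405_at was lost without any 1 of the 5 C57BL/6J arrays, array 2 of the tsA58 line or array 1 or 2 of tsA58 tissue, and after quantile normalization, cyclic loess or centring on hybridisation controls. Without array 3 of the tsA58 line 8 probe sets were called, beside 29.9% of all, among them Dcn at -3.55 ± 0.36 (adjusted p = 0.00017; -2.25 ± 1.25 with all arrays) and Ogn at -1.63 ± 0.33 (adjusted p = 0.0050; -0.97 ± 0.68 with all arrays). For Omd the difference was called on removing array 1 of tsA58 tissue (-1.24, adjusted p = 0.043) and on removing no other array. For Lum and Aspn it was -0.28 ± 0.46 and -0.37 ± 0.24.

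In the mouse genome most of these genes lie side by side with relatives, and the neighbours in the RefSeq gene table included further family members. Dcn and Lum are followed by Kera (keratocan) and Epyc (epiphycan). Kera fell in both strains (-2.10 in C57BL/6J and -3.45 in tsA58), as did Epyc (-2.72 and -4.32), from tissue means of 5.09 to 7.58. The Kera call in C57BL/6J was lost without array 2 or 3 of its line or either array of its tissue. In this run Lum, Kera and Epyc were called lower in both lines and Dcn in tsA58, while in C57BL/6J the lower Dcn was called only without array 3 of the tsA58 line. Kera averaged 2.98 in the C57BL/6J line and 2.91 in the tsA58 line, and Epyc 3.57 and 3.25, all under the array medians. Like Lum, both passed the filter through tissue arrays, so their lower calls are not independent of it and are given as descriptions. Aspn, Omd and Ogn lie in a row after Ecm2, whose mean was 3.40 to 3.72 in all groups and which did not pass the filter. In that row Aspn and Ogn lay far above the array medians in the tissues, while Omd between them averaged 4.57 in C57BL/6J tissue, under the medians, and 5.36 in tsA58 tissue. Optc (opticin), Prelp and Fmod form the third run. Optc fell in both lines (-1.86 and -3.72) and was higher in tsA58 than in C57BL/6J tissue by 1.40 ± 0.26 (SE; limma adjusted p = 0.0042), as Prelp was, while Fmod was not called; the Optc call between the tissues was lost without array 1 of C57BL/6J tissue. Bgn has no family member within 3 genes on either side.

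**Figure D4:**
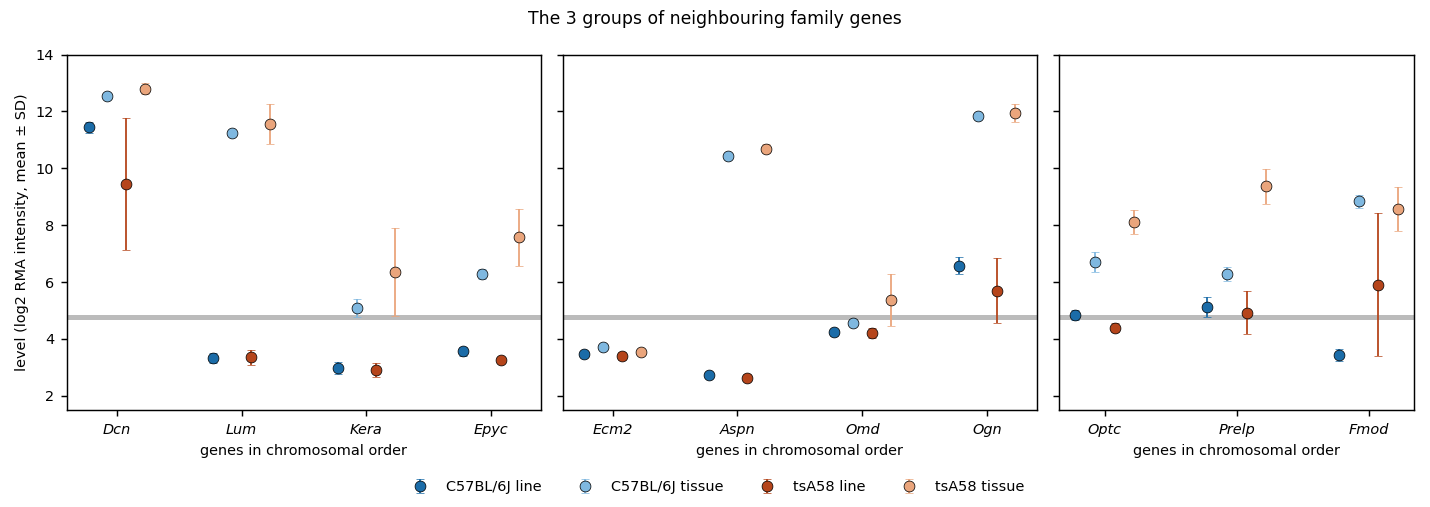
Mean level (log2 RMA intensity, bars are SD) in the 4 groups for the genes of the 3 runs of neighbours, Dcn to Epyc, Ecm2 to Ogn, and Optc to Fmod, in chromosomal order. Omd stays near the array medians between Aspn and Ogn, and Optc and Prelp are highest in tsA58 tissue.

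Genes that work with the family were taken from lists and counted by their brightest probe set, against 34.2% of all genes called in C57BL/6J and 31.7% in tsA58. For list counts without array 3 of the tsA58 line, here and below, no share of all genes is given. Over all tested probe sets the share called in tsA58 was 30.5% with all arrays and 32.8% without that array. These list counts therefore show only how calls moved with that array. Of 10 other genes of the extended family, 6 were tested. Of these, 4 fell and 0 rose in the C57BL/6J line, and 3 fell and 0 rose in the tsA58 line, with median differences of -1.57 and -2.08. Kera and Epyc are counted among the falls though they passed the filter through tissue arrays. Under hybridisation control centring, 0 of the 6 were called lower in C57BL/6J and 3 in tsA58. Of the 10 collagens of fibrils and their surfaces, 3 fell and 0 rose in C57BL/6J and 4 fell and 1 rose in tsA58 (medians 0.09 and -1.30; 7 fell without array 3 of the tsA58 line). Col6a3, a chain of the microfibril collagen that several family members bind, fell in both (-6.26 and -4.72). Col14a1, which decorin binds, fell as well (-5.97 and -5.83). It averaged 4.03 in the C57BL/6J line and 3.50 in the tsA58 line, under the array medians. Col14a1 thus passed the filter through tissue arrays, so its fall, also counted above, is given as a description.

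Among 18 tested genes for the sugar linker and for chondroitin and dermatan sulfate chains, 5 rose and 2 fell in C57BL/6J, and 1 rose and 3 fell in tsA58 (3 and 3 without array 3 of the tsA58 line), with medians of 0.29 and 0.34. Chst15, which sulfates chondroitin chains, fell (-2.86 and -2.53). Dsel, related to the dermatan sulfate epimerase, fell in tsA58 (-1.23; -0.67 and not called without array 3 of the tsA58 line, and not called without array 1 or 3 of tsA58 tissue), and the chain-polymerising factor Chpf2 rose by 2.10 in C57BL/6J only, with a tsA58 change of -0.12 and a called difference between the strains of -2.22 ± 0.49 (SE; limma adjusted p = 0.0087). Among 8 tested genes for keratan sulfate and sulfate supply, 1 rose and 1 fell in C57BL/6J and 2 rose and 1 fell in tsA58 (medians -0.15 and -0.31). B4galt4, a galactosyltransferase of keratan sulfate, rose by 2.83 and 1.14, the tsA58 call being lost without array 3 of its tissue. Slc26a2, a sulfate transporter, fell in C57BL/6J (-1.78; not called without array 2 of its tissue). Chst1, a keratan sulfate sulfotransferase, rose by 2.00 in tsA58 and was 3.74 ± 0.35 higher in the tsA58 than in the C57BL/6J line (adjusted p = 6.04e-05).

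Of 9 tested genes for proteases that trim or cut these proteoglycans, counted with Pcolce, an enhancer of such a protease and not itself one, 5 rose and 0 fell in C57BL/6J and 4 rose and 1 fell in tsA58 (medians 1.31 and 1.03). Mmp13, a collagenase, rose by 9.19 and 8.43 from background in the tissues, and Mmp3, stromelysin, by 4.20 and 5.49, while Mmp2 fell in tsA58 alone (-2.38; 0.99 in C57BL/6J, not called), with a called difference between the strains of -3.36 ± 0.59 (SE; limma adjusted p = 0.0031). Among 12 tested ligands and receptors that the family binds, 4 rose and 3 fell in C57BL/6J and 3 rose and 2 fell in tsA58 (medians 0.76 and 0.17; 2 rose and 3 fell without array 3 of the tsA58 line). Tgfb1 rose by 3.53 and 1.35 and Bmp2 fell (-3.01 and -3.25). Lox, the collagen crosslinking enzyme, rose by 1.90 in tsA58, a call lost without array 1 or 3 of the line or array 2 or 3 of the tissue (1.35 without array 3 of the line). Of 17 tested proteoglycans outside the family, 0 rose and 8 fell in C57BL/6J and 2 rose and 10 fell in tsA58 (medians -0.91 and -1.56; 1 rose without array 3 of the tsA58 line). Srgn, the proteoglycan of blood cell granules, fell (-4.55 and -5.43), and so did the glypicans Gpc3 (-4.23 and -4.11) and Gpc6 (-4.13 and -4.34). Centring on hybridisation controls raised every C57BL/6J difference by 1.27 and gave counts in C57BL/6J, higher and lower, of 3 and 2 for collagens, 8 and 0 for chondroitin and dermatan sulfate, 2 and 0 for keratan sulfate, 7 and 0 for proteases, 7 and 1 for ligands and receptors and 3 and 4 for other proteoglycans. In tsA58 it raised every difference by 0.63 and gave 2 and 2 for collagens, 1 and 1 for chondroitin and dermatan sulfate, 2 and 0 for keratan sulfate, 5 and 1 for proteases, 3 and 1 for ligands and receptors and 2 and 7 for other proteoglycans. The centring moves all genes alike, and no share of all genes called under it is given for line against tissue. These centred counts therefore cannot be read as results about the lists.

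Between the lines, the genes of these lists with the largest called changes (limma) included Vcan (versican, a large proteoglycan of loose matrix), which was lower in the tsA58 line by 5.05 ± 0.45 (SE; adjusted p = 4.44e-05), and Agrn (agrin), which was higher by 1.82. Mmp2 (-2.76) and Bmp2 (-2.64) were lower and Mmp3 (2.62) and Csgalnact1 (1.32), which starts chondroitin chains, were higher there. Chpf2 (-1.51) and B4galt4 (-1.03) were lower, and their signs turned under hybridisation control centring (0.068 and 0.56); the B4galt4 call was lost without array 1 of either line. The collagen chains Col1a2 (-2.64) and Col6a2 (-1.95) were lower and the growth factor receptor Igf1r (1.10) was higher, but each call was lost on leaving out any of 4 or more single arrays of the lines. Under hybridisation control centring the calls of Mmp2, Bmp2, Col1a2 and Col6a2 were lost.

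Between the tissues, Prg4 (lubricin), which coats sliding surfaces, was higher in tsA58 by 3.73 ± 0.62 (SE; limma adjusted p = 0.0023), and Sdc1 (syndecan 1), an epithelial proteoglycan, was lower (-1.95; 0.27 under hybridisation control centring). Tgfb1 was higher by 1.84 and Bmp2 lower (-2.40), and B3gnt2 (1.41) was higher; the Bmp2 call was lost under hybridisation control centring (-0.18). The sulfotransferase Chst12 (2.01) and the linker enzyme B3gat3 (1.08) were called higher too, both calls being lost without array 1 of C57BL/6J tissue and that of Chst12 also without array 2. The change from tissue to line differed between the strains for Vcan (-3.94), Chst12 (-2.87), Bmp4 (-2.67), Tgfb1 (-2.18), Optc (-1.86), B4galt4 (-1.69), Agrn (2.16) and Chst1 (2.81), beside Mmp2 and Chpf2 above. The Agrn call was lost without array 1 of C57BL/6J tissue, and those of Tgfb1, Optc, B4galt4, Agrn, Chst1 and Chpf2 under hybridisation control centring.

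Across the 11 arrays the members fell into patterns that follow the split between lines and tissues, which all these correlations share. Lum and Aspn correlated at 0.998, Lum and Ogn at 0.977 and Ogn and Aspn at 0.977. Bgn correlated negatively with the other 7, from -0.42 with Dcn to -0.84 with Aspn. The genes outside the family whose levels were most like a member's, among 7711 candidates, are given as descriptions. For Lum these were Tcf21, a transcription factor of mesenchyme (0.997), Gkn1, a stomach lining product (0.996), and Gucy1a1 (0.996). For Aspn they were Sparcl1 (0.999), Gucy1a1 (0.999) and Synpo2 (0.999), and for Ogn Pf4 (0.991), Gng11 (0.990) and Fibin (0.988). Bgn was most like Foxp4 (0.978), Tnks1bp1 (0.973) and Tgfb1 (0.972).

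Dcn, with its low values in arrays 1 and 2 of the tsA58 line, was most like Pdgfra, the receptor that marks fibroblast-like cells of the gut wall (0.973; 0.988 without array 3 of the tsA58 line), then Cdon (0.973) and Tgm2 (0.968). Fmod was most like Mpzl2 (0.975), Vat1l (0.958) and Flrt3 (0.957). Prelp was most like Plin4, a coat protein of lipid droplets (0.988), Nbl1 (0.983) and Tox (0.978). Omd was most like Jchain (0.967), Il7 (0.957) and Pla1a (0.951), all with their highest mean in tsA58 tissue.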

How the data were processed

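RNA from 11 samples in 4 groups was measured on Affymetrix mouse genome arrays; per the labels' protocols about 50 ng of total RNA was amplified with oligo(dT) and then random primers. The deposited values are log2 RMA intensities, per the submitters' processing notes, and no RMA version is stated there. Gene names came from the platform annotation: 34945 probe sets with 1 symbol, 932 with several, 9160 with none, and 64 controls left out. Probe sets above their own array's median on at least 2 arrays were fitted with limma 3.58.1 (R 4.3.3) in 1 model of 4 group means, with Benjamini-Hochberg adjustment over 26903 probe sets; all comparisons share samples and the spread estimate. The text names every member, the 2 called genes of each pathway list with the largest change per comparison, marker genes where a result turns on them, neighbours within 3 genes, and the 3 genes most correlated with each member. Members, lists and tests were chosen with earlier results of these data known. RefSeq matched 8 of 8 members. The fit was tested on simulated data. Replicate numbers were not used to pair the samples, since the labels state no pairing. Over 15 pairs of same-numbered samples the correlation of deviations from group means ran from -0.157 to 0.220, and 1 was over 0.1. In groups of 2 or 3 arrays such deviations are tied to each other, so these values cannot exclude a pairing.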

Additional observations from a re-analysis of the deposited data

Results flagged for a closer look

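The test of the difference between the strains' line minus tissue changes (limma, tsA58 minus C57BL/6J) singled out 4 member probe sets. For Prelp the values were -3.27 (1416321_s_at, adjusted p = 0.0036) and -2.56 (1416322_at, adjusted p = 0.026), with both lines near the array medians. For Bgn they were -1.09 (1416405_at, adjusted p = 0.029) and -1.59 (1448323_a_at, adjusted p = 0.011). Groups of 2 or 3 arrays are too small for a test of single outlying arrays.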

How the results depend on the processing

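Lum, Aspn, Ogn and Bgn kept their direction and call in the C57BL/6J line against tissue under every alternative run, as did Lum, Aspn, Ogn, Dcn and Prelp in the tsA58 line. Counts of called member probe sets over the removals of 1 array ran from 9 to 16 in C57BL/6J, 8 to 14 in tsA58, 0 to 3 between the lines, 1 to 3 between the tissues and 2 to 8 for the difference between the strains. Centring on hybridisation controls gave 12 calls between the lines and 19 between the tissues, beside 66.0% and 89.0% of all tested probe sets called higher. It gave 2 for the difference between the strains. The actin 3' to 5' ratio as a covariate gave 4 between the lines and 7 for the difference between the strains. The other counts in this paragraph stand without a share of all tested probe sets, so they show only how member calls moved with the setting. Signs turned under hybridisation centring for Dcn (0.16), Omd (0.93) and Prelp (0.093) in C57BL/6J, for Bgn (1.19), Ogn (0.71), Omd (1.57), Aspn (1.48) and Prelp (1.38) between the lines, and for Fmod (1.94) between the tissues. With the actin covariate they turned for Fmod (-0.58), Omd (0.094) and Aspn (0.070) between the lines and for Dcn (-1.92) and Ogn (-1.08) between the tissues. Cyclic loess turned Lum (-0.048) and Omd (0.074) between the lines and Ogn (-0.12) between the tissues, and quantile normalization turned Omd (0.059) between the lines. Removing 1 array turned signs within -0.14 to 0.12 for Lum, -0.081 to 0.091 for Omd and -0.64 to 0.057 for Prelp between the lines, -0.052 to 0.66 for Lum and -0.076 to 0.24 for Ogn between the tissues, and -0.65 to 0.062 for Lum in the difference between the strains. The cause was not tested for any of these. Omd did not pass the stricter filter, so it has no value there. Alternatives for gene lists and correlations were chosen after seeing the data.

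The labels give same-numbered samples no link other than the number. With it as a replicate block, 1 member probe set was called between the lines, Fmod at 2.48 (limma adjusted p = 0.034), the Fmod difference between the strains was called (3.43, adjusted p = 0.048), that of Bgn was not (-1.12, adjusted p = 0.053), Dcn (-0.19) and Ogn (-0.054) turned sign between the tissues, and no other call of the 8 brightest probe sets changed.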
